A study of Mus musculus with 6 samples.

Results

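The genes described here are 35 molecular chaperones and protein folding factors of the mouse, taken by symbol from a table of 29872 genes. Of these, 22 belong to the endoplasmic reticulum (ER) or its stress response, 10 to the cytosol and 3 to mitochondria. All 35 symbols were in the table. RNA was measured by bulk sequencing in 3 libraries of CML, short for chronic myeloid leukaemia, and 3 of WT, short for wild type. Both groups were untreated bone marrow cells of the C57BL/6 strain, expanded ex vivo and sorted as Lin-Sca1+cKit+CD150+, a surface phenotype of haematopoietic stem cells. The labels call the CML cells leukaemic stem cells (LSCs) and the WT cells haematopoietic stem cells (HSCs). They give neither the leukaemia allele and the cells that express it, nor the age of the mice, nor whether each library stands for an animal or culture of its own. The spread behind each p-value below is thus that of the libraries alone, and it may be technical.

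Proteins that enter the ER are folded by the HSP70-type chaperone BiP (Hspa5) and the HSP90-type chaperone GRP94 (Hsp90b1), by the lectins calnexin and calreticulin, which hold glycoproteins, and by the protein disulfide isomerases, which form disulfide bonds. When unfolded proteins build up there, the membrane sensors IRE1 (Ern1), ATF6 and PERK (Eif2ak3) start the unfolded protein response, in which the transcription factors XBP1, ATF6 and ATF4 raise ER chaperones and ER-associated degradation (ERAD). In the cytosol the heat shock factor HSF1 controls HSP70 and HSP90 genes, and in mitochondria HSP60 (Hspd1), its lid HSP10 (Hspe1) and mortalin (Hspa9) fold imported proteins. Blood stem cells are known to make protein slowly and to be sensitive to unfolded protein, and HSP90 keeps many kinases folded, the leukaemic fusion kinase BCR-ABL among them.

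Promoter sequences are shown first because they mark which of these genes carry the elements of the ER and heat shock responses. RefSeq windows on GRCm38.p6, from 250 bases before to 50 bases after the transcription start, were found for 28 of the 35 members, and both strands were searched. The ER stress response element, CCAAT and CCACG with 9 bases between them, is known to bind NF-Y at the CCAAT end and ATF6 or XBP1 at the other. It was in 39 of 32851 windows of all genes (0.119%), from 37 genes, of which 8 were members. Their stretches are given 5′ to 3′ along the gene's strand, with the element in capitals, also where it lies in the reverse direction, and with the distance of the first and last base from the start. Hsp90b1 has it in both directions, and its stretch runs from one to the other.
Hsp90b1 (chr10:86705521-86705668, minus strand, -224 to -77): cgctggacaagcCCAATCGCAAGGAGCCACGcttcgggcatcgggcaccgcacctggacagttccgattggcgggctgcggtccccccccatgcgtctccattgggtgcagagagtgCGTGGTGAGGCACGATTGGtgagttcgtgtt
Canx (chr11:50325788-50325830, minus strand, -157 to -115): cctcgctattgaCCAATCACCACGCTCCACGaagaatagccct
Dnajc3 (chr14:118937815-118937857, plus strand, -117 to -75): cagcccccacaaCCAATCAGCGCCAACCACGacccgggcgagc
Hspa5 (chr2:34772013-34772055, plus strand, -77 to -35): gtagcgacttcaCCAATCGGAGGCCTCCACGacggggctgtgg
Calr (chr8:84847063-84847105, minus strand, -174 to -132): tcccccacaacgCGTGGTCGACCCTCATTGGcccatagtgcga
Pdia6 (chr12:17266479-17266521, plus strand, -110 to -68): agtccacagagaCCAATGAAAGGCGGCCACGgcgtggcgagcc
Creld2 (chr15:88819508-88819550, plus strand, -138 to -96): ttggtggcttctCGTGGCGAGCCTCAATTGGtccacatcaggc
Syvn1 (chr19:6046520-6046562, plus strand, -56 to -14): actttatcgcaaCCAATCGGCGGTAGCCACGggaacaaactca
The related element ERSE-II, ATTGG and CCACG with 1 base between them, was in 12 windows (0.0365%). Herpud1 holds it before its start, and Dnajb11 holds it after its start.
Herpud1 (chr8:94386365-94386399, plus strand, -64 to -30): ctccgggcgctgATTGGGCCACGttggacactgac
The heat shock element searched, GAA, TTC and GAA with 2 bases between each, was in 198 windows (0.603%), from 179 genes. Hspe1 and Hspd1 stand head to head and share the stretch below, which lies between their starts and holds 2 overlapping matches, and Hsph1 holds the element after its start. It is given along the strand of Hspe1, with distances from the Hspe1 start.
Hspe1 (chr1:55088053-55088082, plus strand, -95 to -66): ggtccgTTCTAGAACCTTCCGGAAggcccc
The XBP1 element TGACGTGG was in 222 windows (0.676%) and in that of no member. A match says only that these letters are there.

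The CML libraries held between 13323469 and 15433481 counts and the WT libraries between 15930585 and 17926847. Of 16221 genes with enough counts to test, 10.2% were higher and 7.20% lower in CML, which is 17.4% in either direction, at an adjusted p under 0.05 (edgeR). Abundance is given as CPM, the counts scaled to a common library size with TMM, and fold changes as log2 of CML over WT with their standard error (SE). The median log2 fold change of all tested genes was -0.0043, and it was 0.094 with library totals in place of TMM. Of the gate's own markers, Kit had 309 ± 100.5 CPM in the CML libraries and 292 ± 9.05 CPM in the WT ones, Ly6a (Sca1) 106 ± 57.5 CPM in the CML libraries and 52.2 ± 12.1 CPM in the WT ones and Slamf1 (CD150) 14.2 ± 4.35 CPM in the CML libraries and 24.7 ± 6.61 CPM in the WT ones (SD, n = 3 each). Slamf1 was lower in CML (log2 fold change -0.80 ± 0.24, adjusted p = 0.047), but its groups overlapped. It had 19.2 CPM in CML 2 and 18.7 CPM in WT 3. Of 14 mast cell and basophil markers, 7 were higher in CML, and their summed level was 2129 to 7457 CPM in CML, lowest in CML 1, and 191 to 393 CPM in WT. Cpa3, a mast cell protease and their most abundant gene, had 2907 ± 1636 CPM in the CML libraries and 94.0 ± 36.9 CPM in the WT ones. Monocyte and macrophage markers summed to 360 to 424 CPM in CML and 237 to 293 CPM in WT, with 5 of 8 tested genes higher. Those of erythroid cells summed to 147 to 328 CPM in CML and 374 to 421 CPM in WT, but of 8 tested genes 2 were higher (Gata1 and Klf1, erythroid transcription factors) and 2 lower (the globin genes Hbb-bt and Hbb-bs), with a median log2 fold change of 0.70. Those of megakaryocytes summed to 125 to 194 CPM in CML and 275 to 299 CPM in WT, with 2 of 7 lower, those of dendritic cells to 44.3 to 141 CPM in CML and 22.3 to 47.0 CPM in WT, with 2 of 6 tested genes higher, and those of B, T and NK cells to 31.7 to 40.4 CPM in CML and 11.9 to 16.8 CPM in WT, with 1 of 2 tested genes higher. Genes known from haematopoietic stem cells summed to 277 to 312 CPM in CML and 430 to 519 CPM in WT. All 7 tested genes of that list had negative fold changes and 2 were lower, Mycn at -3.03 and Hlf at -1.36 on the log2 scale. The 7 plasma cell markers, from a cell type with a very large ER, summed to 5.46 to 14.8 CPM in CML and 3.35 to 4.17 CPM in WT. Of these, 4 had too few counts to test. Irf4 and Prdm1 were higher, while Sdc1 had a log2 fold change of -0.84 (adjusted p = 0.0903). Neutrophil markers summed to 157 to 260 CPM in CML and 128 to 253 CPM in WT, and none of 8 tested genes passed. Gata1, Klf1, Mycn, Hlf, Irf4, Prdm1 and Sdc1 were named after their values were seen. In bulk RNA, fewer cells of a type and less RNA per cell cannot be told apart. The part of these cell type markers in the values below was not tested.

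Most chaperone genes did not pass the test, and those that passed were mostly lower in CML. Among the 35 members, 32 had enough counts to test. Of these, 1 was higher (3.12%), 7 were lower (21.9%) and 24 did not pass, beside 10.2% and 7.20% of all tested genes. With library totals as the scale the split was 3 higher and 5 lower. Among the 9565 tested genes with a mean of at least 10 CPM, a range that takes in every tested member, 881 were higher and 961 lower. The 7 were Hsp90b1, Canx, Dnajc3 and Xbp1 of the ER group, Hsp90aa1 of the cytosol, and Hspd1 and Hspe1 of mitochondria. The member that was higher was Ern1. Every CML library was below every WT library in 11 members and above every WT library in 5, beside 16.5% and 18.5% of all tested genes, and in 16 members the groups overlapped. The median log2 fold change was -0.084 over the 22 ER members, -0.21 over the 7 tested cytosolic members and -0.56 over the 3 mitochondrial members. The changes that passed were all under 2-fold, from -0.61 for Hsp90aa1 to 0.62 for Ern1 on the log2 scale.

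**Figure D1:**
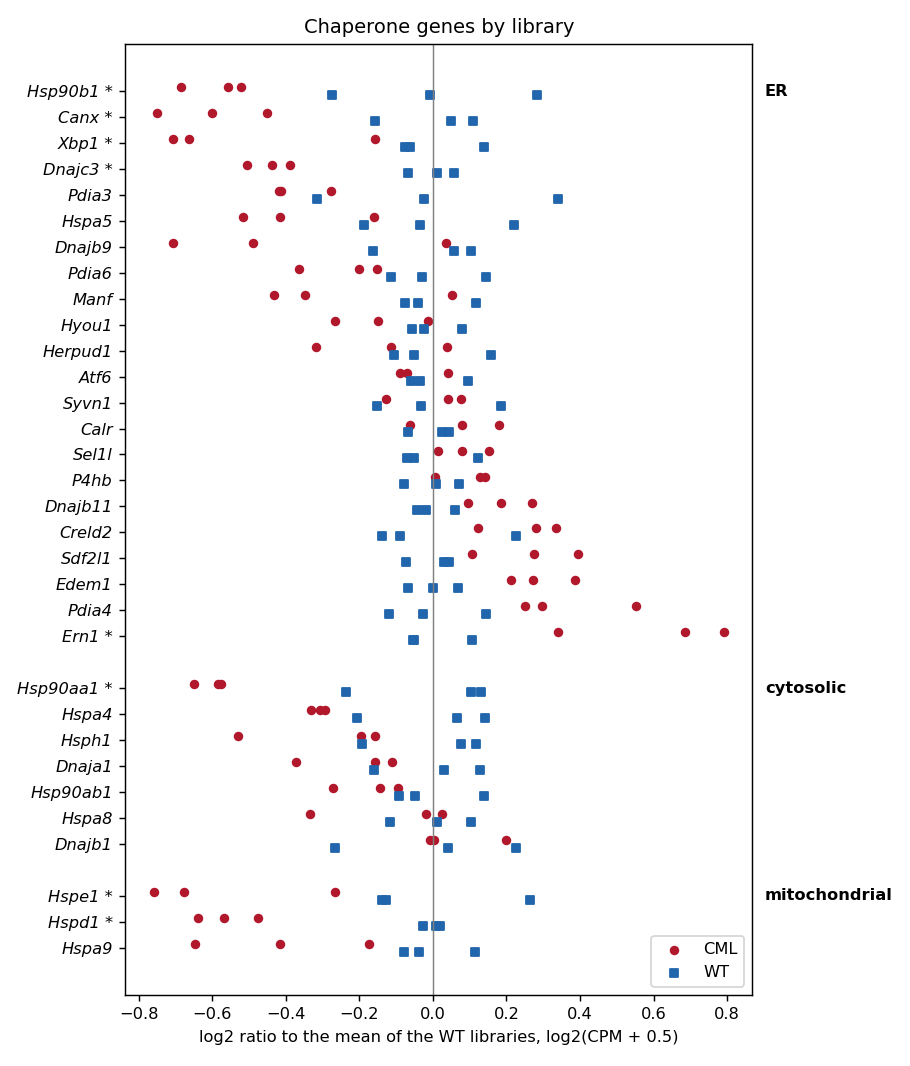
The 32 tested members by library, as the log2 ratio to the mean of the WT libraries (x axis), with CML libraries as circles above WT libraries as squares. Members are ordered by fold change within ER, cytosolic and mitochondrial genes, and an asterisk marks the 8 that passed the test. Circles of the 3 mitochondrial genes all lie left of their squares, while ER genes spread to both sides.

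Of the ER's HSP-type chaperones and their partners, 2 of 7 were lower in CML, GRP94 and the J-protein gene Dnajc3. Hsp90b1, which encodes GRP94, the ER's HSP90 and a folding factor for integrins and Toll-like receptors, had 325, 333 and 297 CPM in the CML libraries, against 583, 476 and 395 CPM in the WT libraries. The groups did not overlap, and the WT libraries spread more widely than the CML libraries. Its log2 fold change was -0.61 ± 0.14 (adjusted p = 0.0104), so that it was 34.3% lower in CML. Part of its exons overlap other genes, 10.3% of their length on the opposite strand and 5.38% on the same strand. Without CML replicate 3 its adjusted p was 0.0588.

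Dnajc3 encodes a co-chaperone of BiP inside the ER, also known as an inhibitor of PERK. It had 118, 114 and 109 CPM in the CML libraries, against 156, 161 and 147 CPM in the WT libraries. The libraries of each group lay close together and the groups were well apart. The log2 fold change was -0.45 ± 0.11 (adjusted p = 0.0117), with adjusted p values of 0.0709 without CML replicate 3 and 0.0743 without WT replicate 2.

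Hspa5, the gene of BiP, the master chaperone that also holds the sensors inactive, had 503, 421 and 392 CPM in the CML libraries, against 654, 548 and 493 CPM in the WT libraries. CML 1 was above the lowest WT library, and the log2 fold change of -0.37 ± 0.14 did not pass (adjusted p = 0.0898). GRP94 and BiP are usually induced together. The ratio of Hsp90b1 to Hspa5, both per kb of exon, was 0.678, 0.830 and 0.795 in the CML libraries, against 0.934, 0.910 and 0.840 in the WT libraries, with no overlap. This ratio and the others below were chosen after the values were seen and carry no test.

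The other 4 members of this group did not pass. Dnajb9, a BiP co-chaperone that keeps IRE1 silent, had 87.9, 61.1 and 52.4 CPM in the CML libraries, against 89.4, 92.3 and 76.7 CPM in the WT libraries; the spread within CML was wide, with CML 1 among the WT values (adjusted p = 0.186). Hyou1, the ER's nucleotide exchange factor for BiP, had 86.9 ± 7.72 CPM in the CML libraries and 95.8 ± 4.81 CPM in the WT ones (adjusted p = 0.433). Dnajb11 encodes a J-protein that binds unfolded substrates for BiP, and Sdf2l1 a protein found in complex with it. Both were low in CPM. Dnajb11 had 21.5, 20.3 and 19.0 CPM in the CML libraries, against 18.6, 17.2 and 17.6 CPM in the WT libraries, and Sdf2l1 had 12.9, 14.1 and 11.5 CPM in the CML libraries, against 10.9, 10.04 and 10.8 CPM in the WT libraries. In both, every CML library was above every WT library, with adjusted p values of 0.373 and 0.267.

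Among the 8 lectin, disulfide isomerase and secreted folding genes, calnexin was lower in CML and calreticulin was not. Canx, the gene of the membrane-bound lectin calnexin and the most abundant ER member, had 1186, 1067 and 963 CPM in the CML libraries, against 1675, 1748 and 1453 CPM in the WT libraries. The groups did not overlap, and the log2 fold change was -0.60 ± 0.14 (adjusted p = 0.00854). The adjusted p was 0.0560 without CML replicate 3 and 0.0560 without WT replicate 2. Calr, the gene of the soluble lectin calreticulin, which binds the same sugars, had 318, 376 and 350.5 CPM in the CML libraries, against 337, 316 and 342 CPM in the WT libraries. These values interleave, with a log2 fold change of 0.069 ± 0.11 (adjusted p = 0.724). Per kb of exon, the ratio of Canx to Calr was 2.29, 1.74 and 1.69 in the CML libraries, against 3.05, 3.39 and 2.61 in the WT libraries, so the lowest WT ratio was above the highest CML ratio.

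The disulfide isomerase genes did not pass the test. Pdia3, the isomerase that works with both lectins on glycoproteins, had 306, 336 and 305 CPM in the CML libraries, against 516, 401 and 327 CPM in the WT libraries. WT 3 was close to the CML libraries while WT 1 was far above them, and the fold change of -0.39 ± 0.15 did not pass (adjusted p = 0.092). Pdia4, an isomerase found in complexes with BiP and GRP94, had 154, 183 and 149 CPM in the CML libraries, against 123, 115 and 138 CPM in the WT libraries. Every CML library was above every WT library, but the log2 fold change of 0.37 ± 0.12 fell short of the threshold (adjusted p = 0.0559). It passed in 4 of the 14 alternatives, namely library totals, a mean of at least 50 counts (adjusted p = 0.0447), DESeq2 (adjusted p = 0.0434) and without WT replicate 3 (adjusted p = 0.0193). The ratio of Pdia4 to Pdia3, per kb, was 0.657, 0.714 and 0.638 in the CML libraries, against 0.311, 0.375 and 0.552 in the WT libraries. P4hb, which encodes the founding isomerase PDI and is also a subunit of collagen prolyl hydroxylase, had 648 ± 33.0 CPM in the CML libraries and 608 ± 31.7 CPM in the WT ones (adjusted p = 0.632). Pdia6, an isomerase that also acts on the sensors, had 119, 123 and 106 CPM in the CML libraries, against 126, 134 and 151 CPM in the WT libraries, with the groups apart by a narrow margin (adjusted p = 0.175). Creld2 and Manf, secreted ER stress proteins, had adjusted p values of 0.35 and 0.288 and overlapping groups. Creld2 had 12.3 ± 0.963 CPM in the CML libraries and 10.4 ± 1.54 CPM in the WT ones, and Manf had 70.9, 53.6 and 50.5 CPM in the CML libraries, against 66.4, 64.8 and 74.2 CPM in the WT libraries.

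**Figure D2:**
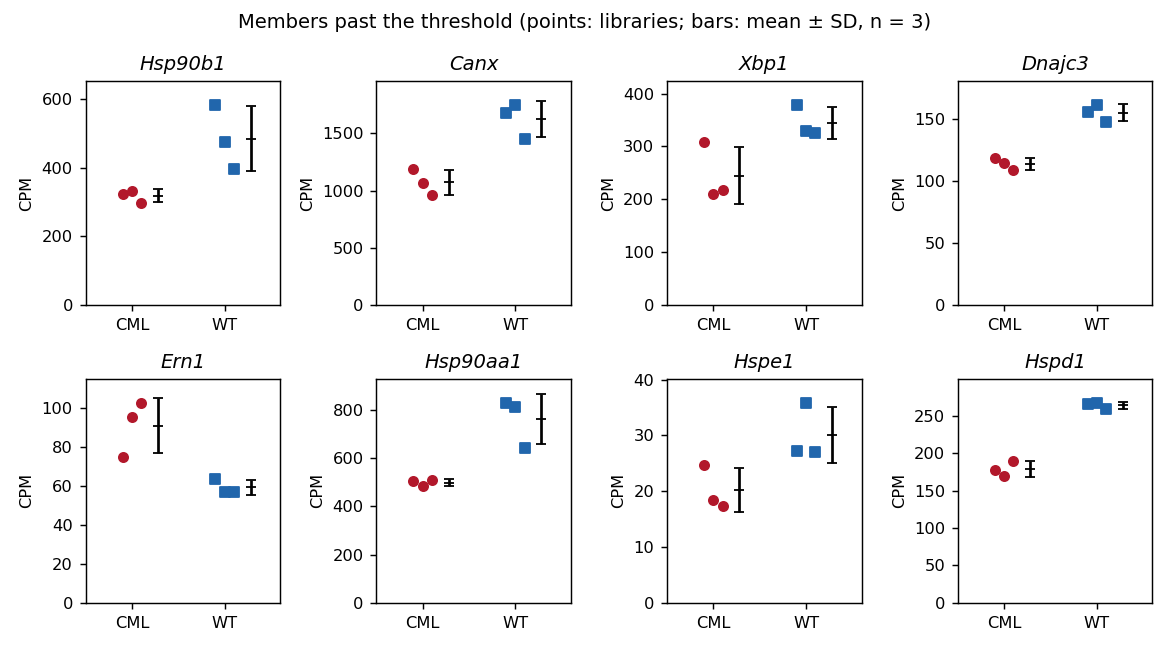
CPM of the 8 members that passed the test, with CML libraries left of WT libraries in each panel, points for libraries and bars for mean ± SD (n = 3). In each panel the groups do not overlap, and Ern1 is the gene with CML above WT.

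The sensor gene Ern1 and the gene of its substrate, Xbp1, differed in opposite directions. Ern1 encodes IRE1, the sensor kinase and RNase that splices Xbp1 RNA. It had 75.1, 95.4 and 103 CPM in the CML libraries, against 63.7, 57.0 and 57.0 CPM in the WT libraries. It was 53.7% higher in CML (log2 fold change 0.62 ± 0.13, adjusted p = 0.00633), and it passed under each of the 14 alternative settings run. Within CML, the level of Ern1 was lowest in CML 1 and highest in CML 3. The mast cell and basophil markers summed to 2129, 7457 and 4717 CPM in CML 1, 2 and 3, so they were highest in CML 2. Whether these levels are linked was not tested. Xbp1, the transcription factor gene whose spliced form drives ER expansion in secretory cells, had 308, 210.4 and 217 CPM in the CML libraries, against 378, 329 and 326 CPM in the WT libraries. CML 1 was just under the WT libraries and the other CML libraries were well under them. The log2 fold change was -0.49 ± 0.15 (adjusted p = 0.0386). It passed in 8 of the 14 alternatives. The adjusted p was 0.0741 with library totals, and without 1 library it was 0.157 (CML 2), 0.166 (CML 3), 0.121 (WT 1), 0.0888 (WT 2) and 0.0750 (WT 3). Gene counts do not separate spliced from unspliced Xbp1, so its activation was not measured.

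Atf6, whose protein is the sensor cleaved in the Golgi, had 70.1, 76.7 and 71.0 CPM in the CML libraries, against 79.7, 71.5 and 72.7 CPM in the WT libraries (log2 fold change -0.040 ± 0.11, adjusted p = 0.842). The libraries interleave, and the sign was positive with library totals (0.059). The ratio of Ern1 to Atf6, per kb, was 1.21, 1.40 and 1.63 in the CML libraries, against 0.903, 0.900 and 0.886 in the WT libraries, the tightest of the ratios within WT. Eif2ak3, the gene of PERK, was no member. It had 29.5 ± 1.46 CPM in the CML libraries and 28.2 ± 2.66 CPM in the WT ones (adjusted p = 0.78), and the ratio of Ern1 to it was 1.98, 2.39 and 2.45 in the CML libraries, against 1.74, 1.59 and 1.35 in the WT libraries. Of the sensor genes measured, Ern1 was the one that passed.

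**Figure D3:**
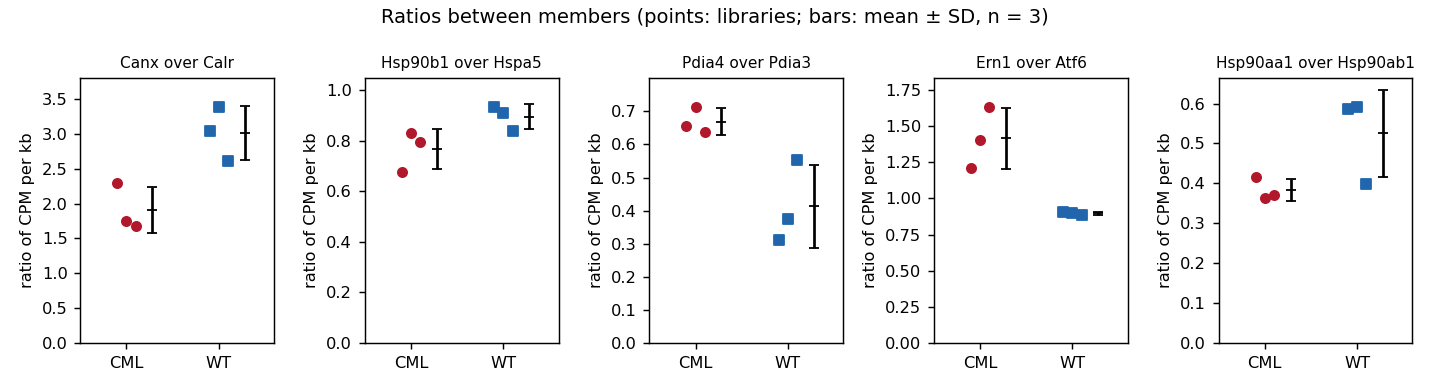
Ratios between member genes, each as CPM per kb of exon, with CML libraries left of WT libraries and bars for mean ± SD (n = 3). The groups are apart for Canx over Calr and Hsp90b1 over Hspa5 (CML lower) and for Pdia4 over Pdia3 and Ern1 over Atf6 (CML higher), and overlap for Hsp90aa1 over Hsp90ab1.

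None of the 4 ERAD members passed in edgeR, DESeq2 or limma-voom, and 1 had an unadjusted p under 0.05. That was Edem1, whose protein picks misfolded glycoproteins for degradation, with 236, 267 and 246 CPM in the CML libraries, against 204, 194 and 214 CPM in the WT libraries. Every CML library was above every WT library, with a log2 fold change of 0.29 ± 0.11 (adjusted p = 0.0839). With library totals as the scale Edem1 was at 0.39 (adjusted p = 0.0249) and passed, as did Pdia4 at 0.46 (adjusted p = 0.0214). Herpud1, which organises the degradation complex, had 140.2 ± 17.3 CPM in the CML libraries and 153 ± 15.1 CPM in the WT ones (adjusted p = 0.527). Sel1l and Syvn1 encode the adaptor and the ubiquitin ligase HRD1 at its core. Sel1l had 159 ± 7.62 CPM in the CML libraries and 149.9 ± 11.2 CPM in the WT ones (adjusted p = 0.664) and Syvn1 13.2 ± 1.01 CPM in the CML libraries and 13.3 ± 1.66 CPM in the WT ones (adjusted p = 0.984). The sign of Syvn1 turned with library totals (0.088 in place of -0.0069).

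Read against the promoter sequences above, the 8 members with the ER stress response element did not move as a block. Of these, 3 were lower in CML (Hsp90b1, Canx and Dnajc3), none was higher and 5 did not pass (Hspa5, Calr, Pdia6, Creld2 and Syvn1), with fold changes of -0.37, 0.069, -0.24, 0.25 and -0.0069 in that order on the log2 scale. The share lower, 37.5%, stands beside 7.20% of all tested genes. Without CML replicate 3 none of the 8 passed, and over all genes 569 were lower in place of 1168. The log2 fold changes were then -0.56 for Hsp90b1, -0.53 for Canx and -0.42 for Dnajc3. Of the 29 other genes with the element, 9 were tested and 2 were lower, Hnrnpa3 and Zfp57, both named after their values were seen. No gene with the element was higher in edgeR, DESeq2 or limma-voom, also at an unadjusted p under 0.05.

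The cytosolic members held 1 gene that passed, the stress-inducible HSP90 gene. Hsp90aa1, which encodes HSP90 alpha, had 504, 483 and 508 CPM in the CML libraries, against 829, 813 and 643 CPM in the WT libraries. The CML libraries lay within a narrow band and below WT 3, the lowest of the WT libraries. The log2 fold change was -0.61 ± 0.13 (adjusted p = 0.00573), and the gene passed under each of the 14 alternatives. Hsp90ab1, the constitutive HSP90 beta gene and the most abundant member per length by its own gene row, at 331 CPM per kb in CML and 373 CPM per kb in WT, had 925, 1011 and 1045 CPM in the CML libraries, against 1080.4, 1048 and 1230.1 CPM in the WT libraries. Its CML libraries were also all below its WT libraries, but by little (log2 fold change -0.17 ± 0.13, adjusted p = 0.382). The ratio of Hsp90aa1 to Hsp90ab1, per kb, was 0.416, 0.364 and 0.370 in the CML libraries, against 0.585, 0.592 and 0.399 in the WT libraries, and the groups overlapped because of WT 3.

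The constitutive HSP70 gene Hspa8 had 457, 569 and 587 CPM in the CML libraries, against 532, 582 and 620.0 CPM in the WT libraries (log2 fold change -0.10 ± 0.13, adjusted p = 0.631). Hspa4, an HSP110-type exchange factor for HSP70, had 299.9, 308 and 305 CPM in the CML libraries, against 416, 395 and 327 CPM in the WT libraries. Every CML library was below every WT library, and the CML libraries were nearly equal, yet the log2 fold change of -0.32 ± 0.12 did not pass (adjusted p = 0.0856). Hsph1, the other HSP110 gene, had 33.2 ± 4.55 CPM in the CML libraries and 40.7 ± 4.65 CPM in the WT ones (adjusted p = 0.166). The J-protein genes, whose products hand clients to HSP70, overlapped between groups. Dnaja1 had 149 ± 14.0 CPM in the CML libraries and 172 ± 17.3 CPM in the WT ones (adjusted p = 0.249) and Dnajb1, a classical heat shock gene, 40.7 ± 3.397 CPM in the CML libraries and 39.2 ± 6.67 CPM in the WT ones (adjusted p = 0.833).

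The heat-inducible HSP70 genes and the small heat shock protein gene were near the limit of detection and were not tested. Hspa1a and Hspa1b are near-identical neighbours, so their counts were summed. They came to 1.00, 7.13 and 4.17 estimated counts in the CML libraries, against 10, 5 and 3 in the WT libraries. Hspb1 had 1, 0 and 4 counts in the CML libraries and 0 in each WT library. A count of 0 allows up to 3 counts, or 0.179 to 0.189 CPM in the WT libraries, by counting error alone.

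All 3 mitochondrial members had every CML library below every WT library, beside 16.5% of all tested genes. Of the 3, 2 were lower at the threshold, beside 7.20% of all tested genes. Hspd1, the gene of the barrel-shaped chaperonin HSP60, had 178, 169 and 189 CPM in the CML libraries, against 265, 267 and 259 CPM in the WT libraries. The gap between the groups was wide against the spread within them, and the log2 fold change was -0.56 ± 0.11 (adjusted p = 0.00316), which held under each of the 14 alternatives. Hspe1, the gene of its lid HSP10, had 24.7, 18.5 and 17.4 CPM in the CML libraries, against 27.2, 35.9 and 27.0 CPM in the WT libraries. CML 1 was near the WT values, and the log2 fold change was -0.57 ± 0.17 (adjusted p = 0.0328). Its adjusted p was 0.0755 with library totals, and without 1 library it was 0.102 (CML 2), 0.137 (CML 3) and 0.186 (WT 2). The exons of Hspd1 and Hspe1 overlap on opposite strands over 4.24% and 7.60% of their lengths, and the strand setting of the counting is not given. The ratio of Hspd1 to Hspe1, per kb, was 4.02, 5.12 and 6.07 in the CML libraries, against 5.43, 4.16 and 5.34 in the WT libraries, with overlapping groups. Hspa9, the gene of mortalin, the HSP70 of the mitochondrial import motor, had 991, 714 and 839 CPM in the CML libraries, against 1212, 1059 and 1089.9 CPM in the WT libraries. It was 24.3% lower in CML and did not pass (log2 fold change -0.40 ± 0.14, adjusted p = 0.0678). It passed in 4 of the 14 alternatives, with adjusted p values of 0.0347 without the filter on low counts, 0.0214 with DESeq2, 0.0452 with the replicate block and 0.0249 without CML replicate 1.

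Several cytosolic and mitochondrial chaperone genes have processed pseudogenes and retrogenes that are nearly identical in sequence, and the authors' table gave these rows of their own. Copies were searched for after the values had been seen, as genes of at least 90% identity over at least 200 bases or named as copies. The 12 copies of Hspa8 held 62.2% to 64.1% of the counts of Hspa8 and its copies together. For Hsp90aa1 the copies held 38.3% to 40.5%, for Hspd1 40.5% to 47.8%, for Hspe1 30.3% to 41.0% and for Dnaja1 22.1% to 33.7%. How reads that match several places were divided is not given in the sources used here, so the counts of these genes alone are uncertain. The largest copy of Hspd1, Hspd1-ps3, was lower in CML by more than the gene itself (log2 fold change -0.80, adjusted p = 9.94e-04). With copies summed into the gene, Hsp90aa1 had 824 ± 16.4 CPM in the CML libraries and 1249 ± 177 CPM in the WT ones (log2 fold change -0.60, adjusted p = 0.00806). Hspd1 had 304 ± 13.2 CPM in the CML libraries and 480.0 ± 37.2 CPM in the WT ones (log2 fold change -0.66, adjusted p = 0.00163), and Hspe1 had 31.2 ± 5.40 CPM in the CML libraries and 46.6 ± 4.69 CPM in the WT ones (log2 fold change -0.58, adjusted p = 0.0148). Hspa8 had 1463 ± 221 CPM in the CML libraries and 1583 ± 110.0 CPM in the WT ones with its copies and did not pass (log2 fold change -0.11, adjusted p = 0.634), nor did Dnaja1 (log2 fold change -0.34, adjusted p = 0.100). The ER members had at most 1 such copy, with a share of up to 1.04% (Calr).

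**Figure D4:**
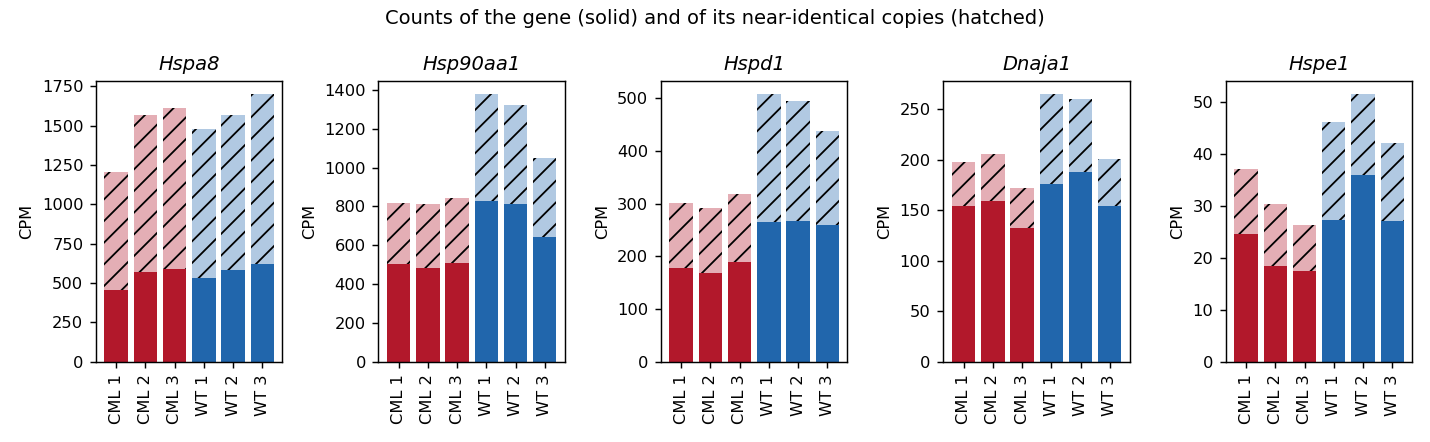
CPM by library of 5 chaperone genes (solid) with the counts of their near-identical copies on top (hatched), CML libraries left of WT libraries. Copies hold 62.2% to 64.1% of the combined counts of Hspa8, and with or without them the CML bars of Hsp90aa1, Hspd1 and Hspe1 lie below the WT bars.

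Taking members by library, the median log2 ratio to the WT mean over the 22 ER genes was 0.025, -0.14 and -0.092 in CML 1, 2 and 3, against 0.033, -0.055 and 0.0068 in WT 1, 2 and 3. The ER median was thus near the WT level, and with library totals as the scale it was 0.12, -0.047 and 0.012 in CML 1, 2 and 3. Over the 10 cytosolic genes, which take in 3 of too few counts to test, the medians were -0.30, -0.13 and -0.13 in CML, against 0.074, 0.050 and -0.17 in WT, with WT 3 inside the CML range. Over the 7 tested ones they were -0.33, -0.14 and -0.16 in CML, against 0.031, 0.065 and -0.16 in WT, with the same overlap. Over the mitochondrial genes they were -0.27, -0.65 and -0.48 in CML, against 0.0079, 0.019 and -0.037 in WT, with a clear gap. CML 3 was the lowest CML library in 13 of the 22 ER members and CML 1 the highest in 11. The summed level of all members, which a few abundant genes set, was 8364 ± 225 CPM in CML, against 10239 ± 465 CPM in WT (SD, n = 3 each). The ER sum was 4760 ± 272 CPM in CML and 5734 ± 371 CPM in WT, although the median ER gene hardly differed.

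Per kb of exon and by the gene rows alone, Hsp90ab1 had the highest level in both groups, with 331 ± 20.7 CPM per kb in CML and 373 ± 32.3 CPM per kb in WT (SD, n = 3 each). In CML, Canx, P4hb and Hspa9 followed at 228, 227 and 197 CPM per kb, values within each other's spread. In WT, Canx at 346 CPM per kb was within the spread of Hsp90ab1, followed by Hspa9 at 260.0 and P4hb at 212 CPM per kb. P4hb itself had nearly the same level in both groups, 227 CPM per kb in CML and 212 CPM per kb in WT. The order depends on the near-identical copies. With copies summed, Hspa8 had 340.2 ± 51.4 CPM per kb in CML and 368 ± 25.6 CPM per kb in WT, and Hsp90ab1 had 333 ± 20.7 CPM per kb in CML and 375 ± 32.6 CPM per kb in WT, within each other's spread. Hsp90aa1 then had 209.5 ± 4.18 CPM per kb in CML and 318 ± 45.0 CPM per kb in WT, and Hspa9 203 ± 33.5 CPM per kb in CML and 269 ± 19.5 CPM per kb in WT. At the low end, Syvn1 had 2.71 CPM per kb in CML and 2.73 CPM per kb in WT, and Hsph1 4.56 CPM per kb in CML and 5.60 CPM per kb in WT.

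The other genes of the same pathways gave a mixed picture. Of 12 genes of the PERK and ATF4 branch, none passed in edgeR, DESeq2 or limma-voom, and 1 had an unadjusted p under 0.05. Their median log2 fold change was 0.063. Atf4, the branch's transcription factor, had 365 ± 33.7 CPM in the CML libraries and 389.9 ± 29.7 CPM in the WT ones (adjusted p = 0.627), and Ddit3, which encodes its pro-apoptotic target CHOP, had 36.7 ± 3.73 CPM in the CML libraries and 34.0 ± 4.23 CPM in the WT ones (adjusted p = 0.619). Of 7 other tested factors of the unfolded protein response, 1 passed, Creb3, which encodes a relative of ATF6 and was higher in CML at 20.7 ± 0.807 CPM in the CML libraries and 13.7 ± 3.27 CPM in the WT ones (log2 fold change 0.59 ± 0.17, adjusted p = 0.032). That call was lost in 4 of 14 alternatives.

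Of 21 further genes of ER folding and translocation, 6 were lower and 1 higher in CML, with a median log2 fold change of -0.38. Sec61b, a subunit of the translocon through which proteins enter the ER, had 55.4 ± 8.36 CPM in the CML libraries and 92.2 ± 8.90 CPM in the WT ones (log2 fold change -0.74 ± 0.13, adjusted p = 0.00232). Txndc5, a disulfide isomerase, had 114 ± 12.5 CPM in the CML libraries and 171 ± 16.7 CPM in the WT ones (log2 fold change -0.59 ± 0.12, adjusted p = 0.00551). Fkbp11, a peptidyl-prolyl isomerase of secretory cells, had 4.88 ± 0.682 CPM in the CML libraries and 8.62 ± 0.423 CPM in the WT ones (log2 fold change -0.82 ± 0.19, adjusted p = 0.0112). The 1 that was higher, named after its values were seen, was the PDI oxidase gene Ero1l, with 974, 2056 and 1485 CPM in the CML libraries, against 976, 818 and 709 CPM in the WT libraries (adjusted p = 0.0477). Its groups overlap, and it passed in 6 of 14 alternatives. The number lower in this list ran from 2, without CML replicate 2 or without WT replicate 2, to 10, without WT replicate 3 or without the filter on low counts.

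Of 15 further tested ERAD genes, 2 were higher and 1 lower in CML, with a median log2 fold change of 0.065. Os9, a lectin that delivers glycoproteins to SEL1L, had 30.1, 28.8 and 31.3 CPM in the CML libraries, against 17.6, 16.6 and 19.4 CPM in the WT libraries (log2 fold change 0.75 ± 0.13, adjusted p = 0.00171), a clear separation that held under each of the 14 alternatives. Ubac2, an ERAD membrane protein gene, was higher at 45.7 ± 6.25 CPM in the CML libraries and 29.9 ± 5.59 CPM in the WT ones (adjusted p = 0.0155), and Edem3, a mannosidase gene, lower at 62.6 ± 1.06 CPM in the CML libraries and 82.8 ± 2.11 CPM in the WT ones (adjusted p = 0.0195). The call of Ubac2 was lost in 3 of 14 alternatives and that of Edem3 in 5. The number higher in this list ran from 1, when CML 2, WT 1 or WT 2 was left out, to 3, with library totals, a mean of at least 50 counts, DESeq2 or without WT replicate 3. The number lower ran from 0, with library totals or without any of CML 2, CML 3, WT 1 or WT 2, to 3, without WT replicate 3.

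Among 26 tested heat shock factors and co-chaperones, 4 were lower and 2 higher in CML, with a median log2 fold change of -0.047. Hsf1 had 26.4 ± 2.79 CPM in the CML libraries and 27.0 ± 3.30 CPM in the WT ones (adjusted p = 0.916), Stip1, which bridges HSP70 and HSP90, 41.5 ± 0.232 CPM in the CML libraries and 42.3 ± 3.93 CPM in the WT ones (adjusted p = 0.909), and Bag3, a heat-inducible HSP70 partner, 2.14 ± 0.383 CPM in the CML libraries and 2.25 ± 0.841 CPM in the WT ones (adjusted p = 0.904). Bag2, an HSP70 exchange factor, was lower at 28.1 ± 1.45 CPM in the CML libraries and 43.0 ± 2.76 CPM in the WT ones (log2 fold change -0.61 ± 0.12, adjusted p = 0.00345), and so was the J-protein gene Dnaja2, at 183 ± 8.99 CPM in the CML libraries and 269 ± 42.8 CPM in the WT ones (adjusted p = 0.0108). The J-protein gene Dnaja4 was higher, but from a low level, with 1.63, 2.41 and 2.82 CPM in the CML libraries, against 0.418, 0.505 and 0.436 CPM in the WT libraries (log2 fold change 2.31 ± 0.37, adjusted p = 0.00103). The number lower in this list ran from 1, without CML replicate 3 or without WT replicate 2, to 7, without WT replicate 3.

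The cytosolic chaperonin TRiC, which folds actin and tubulin, and prefoldin, which feeds it, had 6 of 14 genes lower and none higher in CML, and none higher at an unadjusted p under 0.05 or in DESeq2 or limma-voom. The median log2 fold change was -0.31. Cct8 had 336, 303 and 321 CPM in the CML libraries, against 529, 482 and 407 CPM in the WT libraries (log2 fold change -0.56 ± 0.12, adjusted p = 0.00759). Cct3 had 249.6, 241 and 248 CPM in the CML libraries, against 347, 325 and 352 CPM in the WT libraries (log2 fold change -0.47 ± 0.11, adjusted p = 0.0087). Cct6a had 261 ± 20.3 CPM in the CML libraries and 362 ± 34.5 CPM in the WT ones (adjusted p = 0.0164). These are subunits of the same ring, and the number of lower genes was 2 when any of CML 2, CML 3, WT 1 or WT 2 was left out. Of 15 mitochondrial co-chaperones and proteases, 1 passed, the mitochondrial HSP90 gene Trap1, at 84.3 ± 2.85 CPM in the CML libraries and 106 ± 5.52 CPM in the WT ones (log2 fold change -0.33 ± 0.11, adjusted p = 0.0487), a call lost in 10 of 14 alternatives. Grpel1, the exchange factor of mortalin, had 35.7 ± 5.36 CPM in the CML libraries and 39.4 ± 1.86 CPM in the WT ones (adjusted p = 0.517). Of 14 immediate-early genes, which respond to handling of cells and to other stimuli, 8 were higher in CML. Summed levels were 397 to 532 CPM in CML and 260 to 301 CPM in WT for these 14 genes. Their part in the chaperone values was not tested.

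**Figure D5:**
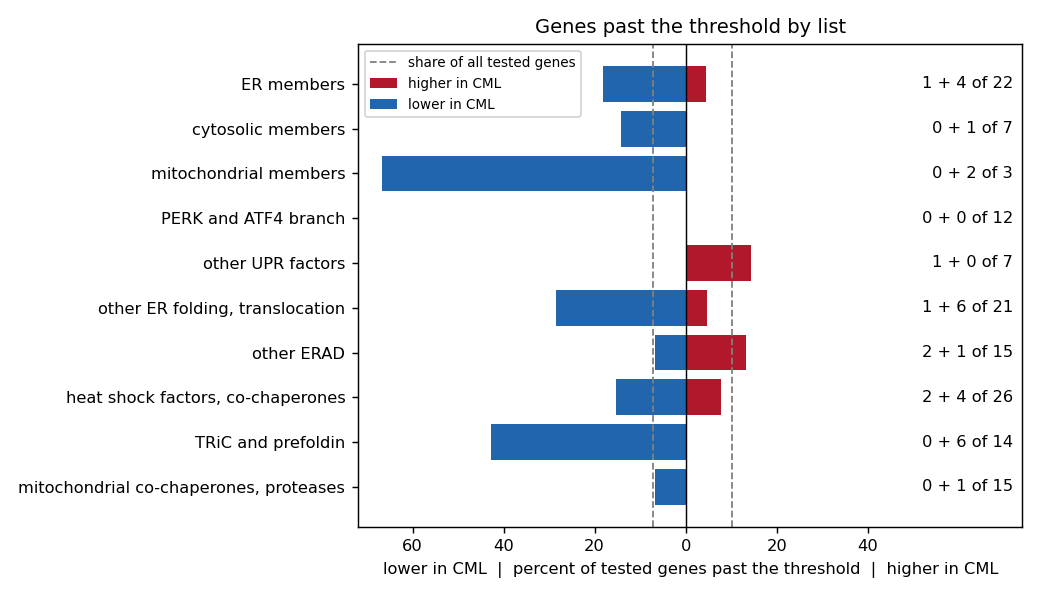
Share of tested genes that passed the threshold in each list, with those higher in CML to the right of 0 and those lower in CML to the left, and dashed lines at the shares of all tested genes (10.2% higher, 7.20% lower). The figures at the right give the number higher plus the number lower of the number tested. TRiC and prefoldin (6 of 14) and the mitochondrial members (2 of 3) have the largest shares lower.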

How the data were processed

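RNA sequencing of 3 CML and 3 WT libraries was analysed, with group and replicate number read from the sample titles. The authors' deposited table holds estimated counts by gene, not scaled to a common total, and many values are not whole. The submitters' processing notes name STAR 2.7.3a, Partek 8.0 and mm10, without roles. Which annotation and strand setting they used, and how multiply matching reads were divided, was not given in the sources used here.

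Counts were rounded to whole numbers. Totals ran from 13323469 to 17926847 counts per library, which set a floor of 3 counts at 0.179 to 0.219 CPM. Low-count genes were removed by filterByExpr of edgeR 4.0.16 (minimum count 10, R 4.3.3), leaving 16221. The two-sided quasi-likelihood F test of edgeR, with TMM scaling, robust dispersions and group as its only term, was fitted over all of these genes, with Benjamini-Hochberg adjustment over all and a threshold of 0.05. The pipeline was tested on simulated data. SE is the size of the log2 fold change over the square root of F. CPM are TMM-scaled, and ratios by library are of log2(CPM + 0.5). No pair of libraries agreed within sampling noise. The chi-square per degree of freedom was 8.81 for WT 1 and WT 2. It was 34.1 for WT 1 and WT 3, and 31.3 for CML 1 and WT 3. By Spearman correlation, library pairs within a group ran from 0.983 to 0.992 and pairs between groups from 0.951 to 0.970.

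Exon lengths, positions and overlaps come from GENCODE release M21 (GRCm38) by symbol. Ratios between genes and the ranking of members by level are per kb of exon. Sums over genes and other remarks on high or low abundance are by CPM. Near-identical copies were found with blastn 2.17.0 on its transcripts. Promoter windows come from RefSeq on GRCm38.p6, with entries for 28 members. Atf6, Hyou1, Manf, Hspa8, Hspa9, Hsp90ab1 and Hsp90aa1 had none.

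The members, the other gene lists and the tests were chosen with earlier results of these data known, so no p over a list is given, and lists are described by counts and medians. Named genes are all members, up to 3 genes per further list with the lowest adjusted p among those that passed, the partners Eif2ak3, Atf4, Ddit3, Hsf1, Bag3, Stip1, Trap1 and Grpel1, the gate's genes and the most abundant markers. Ero1l, Hnrnpa3, Zfp57, Gata1, Klf1, Mycn, Hlf, Irf4, Prdm1 and Sdc1 were named after their values were seen. Alternatives were RLE scaling, library totals, no filter on low counts, a mean of at least 50 counts, DESeq2 1.42.0, limma-voom (limma 3.58.1), a replicate block, leaving out each library, and, added after seeing the data, near-identical copies summed into their gene.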

Additional observations from a re-analysis of the deposited data

How the results depend on the processing

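The 14 alternatives to the test gave 448 values for the fold changes of the 32 tested members. Of these, 407 kept their direction and their side of the threshold, 17 newly passed, 15 no longer passed and 9 changed sign. Ern1, Hsp90aa1 and Hspd1 passed in all 14, with adjusted p up to 0.0427, 0.0382 and 0.0230. The ER members that were higher numbered 3 with library totals, 2 with a mean of at least 50 counts and 2 with DESeq2, in place of 1, and 1 to 3 when a library was left out, with 3 without WT replicate 3. The ER members that were lower, 4 in the main test, numbered 0 to 7 when a library was left out: 0 for CML 3, 1 for WT 2 and 7 for CML 1. The lower cytosolic members were 1 to 2, with 2 without WT replicate 3. The lower mitochondrial members, 2 in the main test, were 1 with library totals, 3 with DESeq2 and without the filter on low counts, and 1 to 3 when a library was left out, with 3 for CML 1 and 1 when CML 2, CML 3 or WT 2 was missing. Of all members, 3 passed without CML replicate 3 and 4 without WT replicate 2, where 8 passed in the main test, and the range over libraries left out was 3 to 12. Over all genes, leaving out a library gave 1466 calls (WT replicate 2) to 4122 (WT replicate 3), in place of 2820. With library totals 2065 were higher and 732 lower, in place of 1652 and 1168. Signs turned only for fold changes near 0 that had not passed. With library totals Atf6 was at 0.059, Syvn1 0.088, Atf4 0.00066, Hsf1 0.065, Bag3 0.029 and Stip1 0.069, and Syvn1 was also at 0.0090 with a mean of at least 50 counts and 0.0014 with limma-voom. When a library was left out, Atf6 ran from -0.082 to 0.0033, Syvn1 from -0.089 to 0.092, Dnajb1 from -0.075 to 0.17, Hsf1 from -0.12 to 0.070, Bag3 from -0.34 to 0.20 and Stip1 from -0.094 to 0.043. The median ER ratio with library totals was 0.12, -0.047 and 0.012 in CML 1, 2 and 3, in place of 0.025, -0.14 and -0.092. The cause of these shifts was not tested.

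Same-numbered CML and WT libraries did not deviate together over all tested genes (correlations -0.030, -0.047 and 0.010). With 3 libraries per group this cannot exclude a pairing, which the labels do not state. With a replicate block, 2807 genes passed in place of 2820, and 9 members in place of 8. The added one was Hspa9 (log2 fold change -0.41, adjusted p = 0.0452), which makes the mitochondrial members 3, and the block changed no other call among members. Of the further genes named, Trap1 (adjusted p = 0.0631), Ero1l (adjusted p = 0.0882) and Serpinh1 (adjusted p = 0.0568) no longer passed with the block.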

Other observations

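Further genes of the folding lists that passed the test are described here, all named after their values were seen. Serpinh1, which encodes the collagen chaperone HSP47, was higher in CML at 9.35, 5.33 and 1.82 CPM in the CML libraries, against 0.777, 1.07 and 1.43 CPM in the WT libraries (log2 fold change 2.32 ± 0.57, adjusted p = 0.0263). The CML libraries differed widely, with the highest value in CML 1, and the call was lost in 7 of 14 alternatives. Ptges3, the gene of the HSP90 co-chaperone p23, was lower in CML at 456, 418 and 402 CPM in the CML libraries, against 852, 776 and 500.3 CPM in the WT libraries (log2 fold change -0.74 ± 0.18, adjusted p = 0.0137). St13, an HSP70 co-chaperone gene, was lower at 248 ± 9.06 CPM in the CML libraries and 327 ± 36.7 CPM in the WT ones (adjusted p = 0.034).

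In the ER lists, Serp1, a translocon partner, was lower at 926, 587 and 565 CPM in the CML libraries, against 1224, 1285 and 942 CPM in the WT libraries (adjusted p = 0.0294), with CML 1 just under WT 3. Dnajc10, a J-protein and disulfide reductase gene, was lower at 279.8 ± 23.3 CPM in the CML libraries and 400.2 ± 54.8 CPM in the WT ones (adjusted p = 0.015), and Ssr1, of the translocon-associated complex, at 577 ± 64.6 CPM in the CML libraries and 783 ± 74.3 CPM in the WT ones (adjusted p = 0.0344). The TRiC subunit genes Tcp1 and Cct4 and the prefoldin gene Vbp1 were lower too. Tcp1 had 609 ± 35.4 CPM in the CML libraries and 809 ± 44.0 CPM in the WT ones, Cct4 560.1 ± 40.9 CPM in the CML libraries and 779 ± 80.0 CPM in the WT ones and Vbp1 186 ± 20.3 CPM in the CML libraries and 269 ± 42.6 CPM in the WT ones, with adjusted p values of 0.0297, 0.0202 and 0.019.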
